A study of Homo sapiens with 15 samples.

Results

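Some genes answered valproic acid in 1 direction early and in the opposite direction late, and the values below follow those genes in K562 cells between 6 h and 72 h of treatment. The measure was the log ratio of treated over untreated RNA on 3 arrays at 6 h and 3 arrays at 72 h, and a gene belonged to the set when the mean of its 3 ratios had opposite signs at both times. Of 18334 measured genes 6370, or 34.7%, changed sign in this way. Of these, 209 were called different from 0 at both times, and they are named the reversed genes here. A total of 128 reversed genes were higher in treated cells at 6 h and lower at 72 h, and 81 were lower at 6 h and higher at 72 h.

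K562 is an established human line from chronic myeloid leukaemia that carries the BCR-ABL1 fusion and keeps some erythroid and megakaryocytic potential. Treated cells received 1 mM valproic acid, untreated cells of the same time received no agent, and both RNAs were hybridised together on 2-colour arrays. RNA was collected after 2, 6, 10, 48 and 72 h, with 3 arrays at each time and 15 arrays in all. Each of the 3 replicates came from its own thawing of the line, and the dyes were exchanged in replicate 3, where treated RNA was labelled with Cy3. The dye and what is particular to replicate 3 therefore cannot be told apart, and a dye term in the model passed for 3693 genes, 20.1% of all. All cells were of 1 line, so the thawings were the only source of biological spread.

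Valproic acid is a short branched fatty acid used against epilepsy. It inhibits class I histone deacetylases, which leaves histones and other proteins more acetylated, and it alters transcription both directly and through the factors that are induced or repressed first. A ratio compares cells of the same age in culture. A sign change can come from a change in treated cells, in untreated cells, or in both, and these cannot be told apart from ratios.

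The deposited ratios carried no stated base and were read as log2. The median standard error of a gene's ratio at 1 time was 0.0602 and that of its difference between 72 h and 6 h was 0.0841. Array medians lay between −0.00522 and 0.0169, and the SDs over probes between 0.211 and 0.432. Replicate 3, with exchanged dyes, stood apart from the others over all probes. Over all probes it correlated with the mean of replicates 1 and 2 at −0.0895 at 2 h, 0.305 at 6 h, 0.325 at 10 h, 0.574 at 48 h and 0.563 at 72 h, while replicates 1 and 2 correlated with each other at 0.73 to 0.864. Over the 18334 genes the values of replicate 3 were 0.535, 0.721, 0.674, 0.827 and 0.81 at 2, 6, 10, 48 and 72 h. Those of replicates 1 and 2 with each other were 0.668, 0.826, 0.815, 0.897 and 0.731. Over genes, replicate 3 thus did not stand apart at 72 h. Probes and genes are not independent, and these correlations are descriptions. No intensities were used here, so no expression level is given and dim probes were not removed. The number of arrays limits the precision. Of the defining markers of the line, GATA1 had a mean ratio of −0.35 at 6 h and −0.08 at 72 h, and KLF1 −0.80 and −0.59, but ratios cannot show whether a marker was expressed.

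Most sign changes were small. The ratio was higher than 0 at 6 h and lower at 72 h in 3091 genes, 16.9% of those measured, and lower and then higher in 3279, or 17.9%. The smaller of both means was under 0.1 on the log2 scale in 5342 of the 6370 genes. With limma's moderated test and an adjusted p under 0.05, 4455 of the 6370 genes were called at neither time, 574 at 6 h alone, 1132 at 72 h alone and 209 at both. Over all genes 19% were called higher and 9.66% lower at 6 h, and 22.1% higher and 13.6% lower at 72 h. These 209 were 1.14% of all genes, with 0.698% for higher then lower and 0.442% for lower then higher. A total of 3285 genes were called at both times, and 3076 of them kept their sign, 2166 higher and 910 lower. Reversal thus applied to 6.36% of the genes called at both times.

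The difference between 72 h and 6 h was also tested directly over all genes. A total of 1668 genes, 9.1%, had a higher ratio at 72 h than at 6 h and 1407, or 7.67%, a lower one by limma at an adjusted p under 0.05. Of these 3075 genes (16.8%), 1466 changed sign and 1609 kept it. One sign on all 3 arrays at 6 h and the opposite on all 3 at 72 h occurred in 875 genes, 4.77% of all, and in 97 of the 128 and 67 of the 81 reversed genes. The counts rested strongly on single libraries. Without replicate 3, which also removes the dye term, 12 and 23 genes were called reversed, and without replicate 2 they were 55 and 58. Leaving out the 72 h array of replicate 1 gave 212 and 116, and replicate 1 at all times 207 and 96. Without the 6 h array of replicate 2 or 3, or the 72 h array of replicate 3, there were 40 to 59 and 44 to 45. The genes higher and lower at 72 h than at 6 h were 399 and 149 without replicate 3 and 1167 and 596 without replicate 2. Without the 6 h array of replicate 2 they were 1195 and 862, and without that of replicate 3 1006 and 654. Without the 72 h array of replicate 3 they were 1039 and 733.

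**Figure D1:**
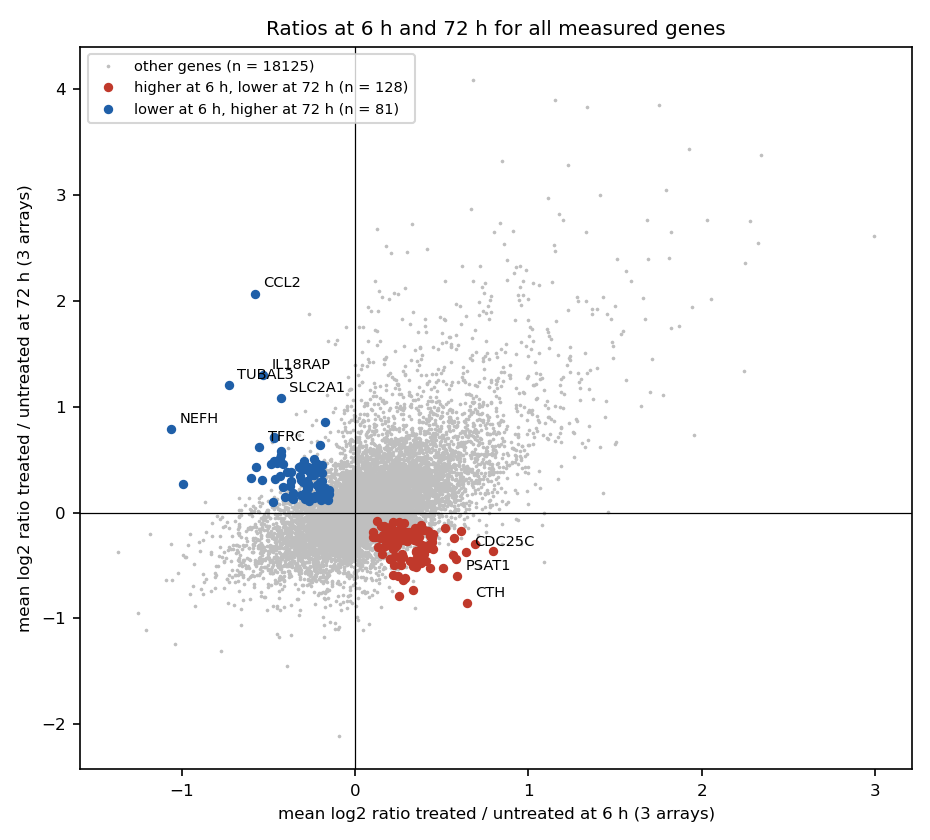
Each point is 1 gene, with its mean log2 ratio of treated over untreated cells at 6 h on the x axis and at 72 h on the y axis (3 arrays each); 128 red points are reversed from higher to lower, 81 blue points from lower to higher, and 18125 grey points are the other genes. Reversed genes lie near the origin apart from a few such as CCL2 at 2.07 and CTH at −0.85 at 72 h.

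Reversed genes spanned a modest range of ratios. In the 128 genes that were higher and then lower, the mean at 6 h had a median of 0.27 and ran from 0.10 to 0.80, and the mean at 72 h had a median of −0.26 and ran from −0.85 to −0.08. In the 81 genes of the opposite direction the median was −0.29 at 6 h and 0.31 at 72 h, with the highest value of 2.07 at 72 h. Both means were at least 0.5 in size in 3 genes of the first group and 5 of the second, and at least 0.3 in 26 of each. The adjusted p of a reversed gene nearest to the threshold was 0.0497 for CENPU at 72 h, where its mean was −0.12. KPTN lay just outside, with −0.34 at 6 h (adjusted p = 0.0501 by limma) and 0.44 at 72 h.

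Enzymes of serine and cysteine synthesis were among the genes that were higher at 6 h and lower at 72 h. The wider list of amino acid response genes that holds them had 6 reversed members of 30 measured, against 0.698% of all genes for this direction. Only PSAT1 of these 6 was still called reversed without replicate 3, without the 6 h array of replicate 1 or of replicate 3, and in the 6 arrays alone with the replicate block, and PSAT1 and CBS were so without replicate 2, its 6 h array or the 72 h array of replicate 3. They belong to the amino acid response, in which the transcription factor ATF4 switches on amino acid synthesis, uptake and tRNA charging when amino acids run short. PSAT1, the aminotransferase of serine synthesis, ranked first of its direction in the smaller of both mean sizes among genes with 1 sign on all arrays of a time. Its ratios were 0.67, 0.74 and 0.36 at 6 h in replicates 1, 2 and 3, and −0.60, −0.75 and −0.45 at 72 h. As that ranking required, all arrays of 6 h lay above 0 and all of 72 h below, and the change was −1.19 ± 0.125 (SE, limma). CTH, the lyase that makes cysteine from cystathionine, had 0.83, 0.49 and 0.62 at 6 h and 0.02, −1.64 and −0.94 at 72 h, so the first thawing did not turn. CBS, the enzyme before it in the same route, had a mean of 0.22 ± 0.194 (SD, n = 3) at 6 h and −0.35 ± 0.0956 at 72 h. SHMT2, the mitochondrial enzyme that takes a carbon unit from serine, had means of 0.27 ± 0.192 and −0.39 ± 0.349. STC2, a secreted glycoprotein induced by cell stress, and SLC38A2, a carrier of small neutral amino acids, were the other reversed members, with means of 0.32 and 0.19 at 6 h and −0.46 and −0.27 at 72 h.

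The promoter of PSAT1 is printed because this gene leads its direction and its promoter holds the CCAAT box, a site of the factor NF-Y, at 3 places. It gives the 250 bases before the RefSeq start on GRCh38.p14, chr9:78296875-78297124, plus strand, 5′ to 3′, with CCAAT in capitals:
PSAT1: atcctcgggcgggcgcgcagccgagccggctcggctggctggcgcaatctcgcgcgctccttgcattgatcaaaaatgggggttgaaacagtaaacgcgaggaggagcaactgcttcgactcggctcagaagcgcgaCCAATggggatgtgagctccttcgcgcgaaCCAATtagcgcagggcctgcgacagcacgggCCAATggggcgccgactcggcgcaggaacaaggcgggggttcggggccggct

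Of 30 measured genes, 17 had a lower ratio at 72 h than at 6 h by limma at an adjusted p under 0.05 and 1, ATF4 itself, a higher one, against 7.67% and 9.1% of all genes. The median of the list was 0.02 at 6 h and −0.38 at 72 h, while the median of all genes was 0.01 at both times. PHGDH, the first enzyme of serine synthesis, went from 0.72 to −0.51 (change −1.23 ± 0.262), and ASNS, asparagine synthetase, from 0.03 to −0.71 (−0.73 ± 0.164). TRIB3, a pseudokinase that restrains ATF4, and SLC7A5, a leucine carrier, were below 0 at both times and lower at 72 h, with −0.18 and −1.06 for TRIB3 and −0.30 and −0.68 for SLC7A5. ATF4 had a mean of −0.53 at 6 h and −0.16 at 72 h, so its own RNA ratio moved opposite to most of the list. That call for ATF4 was lost without replicate 2, without replicate 3 and without the 6 h array of either or the 72 h array of replicate 3. The count of lower members was 6 without replicate 3, 10 without replicate 2 and between 13 and 21 when a single array of 6 h or 72 h was left out. It was 4 in the 6 arrays alone with the replicate block, where 139 of all genes were called lower. The median change lay between −0.49 and −0.32 in all of these.

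Aminoacyl-tRNA synthetases, which load amino acids onto tRNAs, had 2 reversed members, against 0.698% of all genes for this direction. Neither was called reversed without replicate 3 or without the 6 h array of replicate 2 or 3. WARS1, the tryptophan enzyme, had ratios of 0.31, 0.25 and 0.31 at 6 h and −0.32, −0.83 and −0.69 at 72 h. EPRS1, which loads glutamate and proline, had −0.03, 0.37 and 0.71 at 6 h and −0.42, −0.80 and −0.33 at 72 h, so 1 array of 6 h was on the other side of 0. Of 34 measured synthetases 10 had a lower ratio at 72 h by limma at an adjusted p under 0.05 and 0 a higher one (14 and 1 at an unadjusted p under 0.05), against 7.67% and 9.1% of all genes. IARS1 went from 0.30 to −0.61 and AARS1 from 0.07 to −0.62. Without replicate 3 the count was 4, and it was 6 without either the 72 h array of replicate 2 or the 6 h array of replicate 3. It was also 4 in the 6 arrays alone with the replicate block, where 139 of all genes were called lower.

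Mitotic genes that changed sign all went from higher to lower. CDC25C, the phosphatase that activates CDK1 at the entry into mitosis, had ratios of 0.63, 0.75 and 0.54 at 6 h and −0.01, −0.36 and −0.76 at 72 h. CENPE, a kinesin of the kinetochore, had 0.37, 0.48 and 0.30 at 6 h and −0.25, −0.21 and −0.56 at 72 h on the mean of 10 probes, all of which changed sign alike. KIF18A, a kinesin that damps chromosome movement, had 0.26, 0.68 and 0.21 and then −0.30, −0.28 and −0.85. These 3 genes were picked from those with 1 sign on all arrays of a time, so the arrays of both times could not overlap. Of 54 measured mitotic genes 37 changed sign from higher to lower, against 16.9% of all genes, and 29 had a lower ratio at 72 h than at 6 h by limma at an adjusted p under 0.05, against 7.67%. The list median was 0.13 at 6 h and −0.35 at 72 h. BUB1, a checkpoint kinase, went from 0.21 to −0.53, KIF11, the motor that separates spindle poles, from 0.27 to −0.46, and TTK, another checkpoint kinase, from 0.15 to −0.58. CCNA2, cyclin A, was below 0 at both times, at −0.14 and −0.87. Without replicate 3 only 4 mitotic genes were called lower, without replicate 2 they were 18, and without the third array of 6 h or of 72 h they were 15 and 18. In the 6 arrays alone with the replicate block they were 3, where 139 of all genes were called lower. Of CDC25C, CENPE and KIF18A, only CENPE was still called reversed without replicate 3. The median change was −0.40 over all arrays, −0.20 without replicate 3, −0.28 without its 72 h array and −0.53 without replicate 1.

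KIF18A is shown because its promoter holds a CCAAT box and a TTGGCGC element, the latter bound by the E2F factors of the cell cycle, read on both strands over an overlapping stretch of 10 letters. The sequence covers the 250 bases before the RefSeq start on GRCh38.p14, chr11:28108157-28108406, minus strand, 5′ to 3′, with both elements in capitals:
KIF18A: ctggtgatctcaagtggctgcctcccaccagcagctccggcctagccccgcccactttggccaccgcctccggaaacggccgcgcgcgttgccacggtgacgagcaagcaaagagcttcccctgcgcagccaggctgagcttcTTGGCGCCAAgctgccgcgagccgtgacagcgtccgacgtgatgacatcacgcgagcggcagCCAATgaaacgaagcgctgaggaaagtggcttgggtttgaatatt

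DNA replication contributed 5 reversed genes of 46 measured, all from higher to lower, against 0.698% of all genes for this direction. Without replicate 3 none of the 5 was called reversed, 2 were so without replicate 1, without replicate 2, without the 6 h array of replicate 2 or without the 72 h array of replicate 3, and 1, PRIM2, without the 6 h array of replicate 3. ORC3, a subunit of the origin recognition complex, had ratios of 0.33, 0.63 and 0.34 at 6 h and −0.32, −0.34 and −0.90 at 72 h. PRIM1 and PRIM2, the primase subunits that start new strands, had means of 0.19 and 0.21 at 6 h and −0.29 and −0.16 at 72 h. POLD3, a subunit of DNA polymerase delta, went from 0.23 ± 0.053 (SD, n = 3) to −0.20 ± 0.0629. RPA1, which coats single-stranded DNA, went from 0.23 ± 0.122 to −0.22 ± 0.153. FANCG of the Fanconi anaemia repair complex had closely spaced ratios at 6 h, 0.42, 0.45 and 0.44, and −0.14, −0.21 and −0.54 at 72 h. Across 46 replication genes 12 had a lower ratio at 72 h by limma at an adjusted p under 0.05 and 0 a higher one (18 and 1 at an unadjusted p under 0.05), against 7.67% and 9.1% of all genes. That count was 4 without replicate 3, 7 without the third array of either time and 8 without replicate 2, but 21 without the 72 h array of replicate 2. It was 3 in the 6 arrays alone with the replicate block, where 139 of all genes were called lower. The list median was −0.03 at 6 h and −0.22 at 72 h. Its median change of −0.26 was −0.04 without replicate 3, −0.09 without the 72 h array of replicate 3 and −0.16 without its 6 h array.

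Further genes that reversed from higher to lower came from unrelated functions. DNAJC12, a co-chaperone of the aromatic amino acid hydroxylases, had 0.70, 0.34 and 0.48 at 6 h and −0.33, −0.80 and −0.46 at 72 h. HES1, a transcriptional repressor induced by Notch, had 0.68, 0.71 and 0.36 and then −0.05, −0.63 and −0.62. NAT8L, which makes N-acetylaspartate, had 0.43, 0.29 and 0.43 and then −0.48, −0.06 and −0.63. In each of these genes the ratios of 6 h and 72 h were separate, as the choice of genes with 1 sign per time required. NAMPT, the rate-limiting enzyme of NAD salvage, had means of 0.35 and −0.44, and SGSH, a lysosomal enzyme of heparan sulfate breakdown, of 0.34 and −0.50. MOK, a protein kinase, had 0.56 and −0.40, and PTPRB, a receptor tyrosine phosphatase, 0.35 and −0.37, although only 1 of its 2 probes changed sign as the mean did. INTU, a protein of cilium formation, went from 0.35 to −0.36 and ADAM9, a membrane protease, from 0.45 to −0.35. IFITM4P, a pseudogene of the interferon-induced IFITM family, had 0.41 and −0.46 and IFITM3 0.44 and −0.31. IFITM probes can bind the RNA of several members, so these values are uncertain. DNMT3B, a DNA methyltransferase, went from 0.29 ± 0.202 to −0.26 ± 0.0631 and SETD7, a histone methyltransferase, from 0.26 ± 0.0338 to −0.15 ± 0.0546. In 17 refits with other settings or fewer arrays, DNAJC12 and PTPRB were reversed each time, HES1 and MOK in 16 and INTU in 15. NAT8L and SGSH were so in 13, DNMT3B in 12, IFITM4P and SETD7 in 9, and NAMPT, ADAM9 and IFITM3 in 8.

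**Figure D2:**
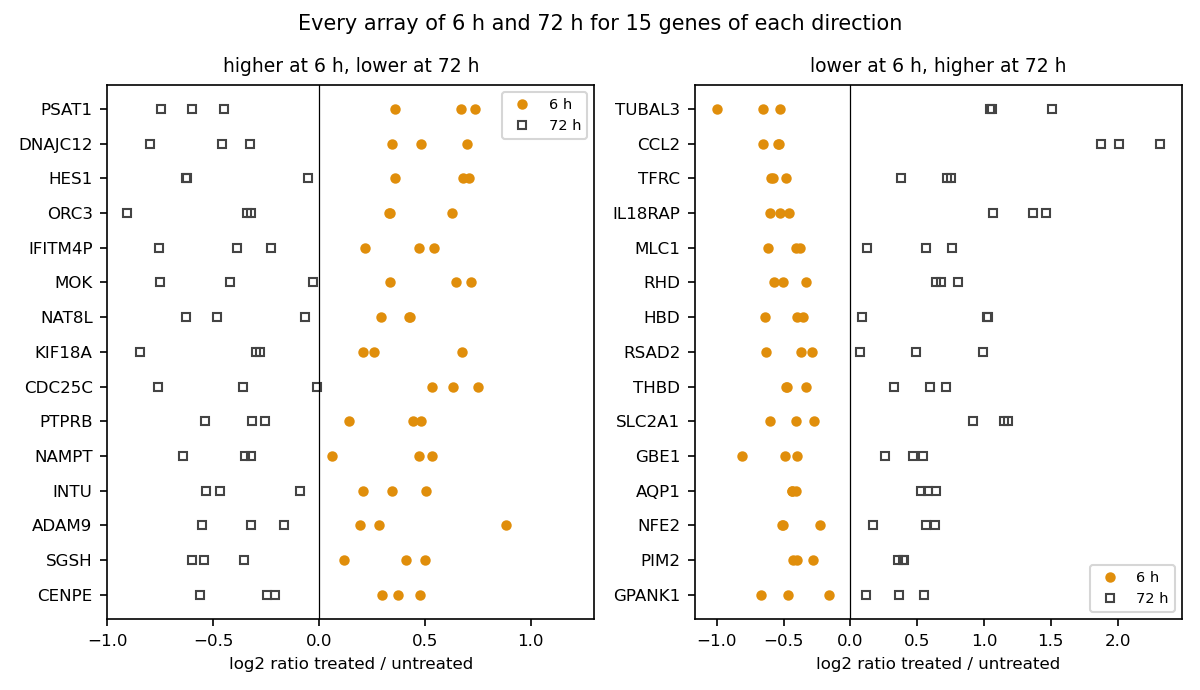
Log2 ratios of treated over untreated cells (x axis) on each of the 3 arrays at 6 h (filled circles) and the 3 at 72 h (open squares) for the 15 genes of each direction whose smaller mean size was greatest among reversed genes with 1 sign on all arrays of a time. Most genes have ratios under 1 in size, while CCL2 reaches 2.32 at 72 h.

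The largest reversals went from lower to higher and included immune and surface genes. CCL2, the chemokine that attracts monocytes, had ratios of −0.54, −0.66 and −0.53 at 6 h and 1.88, 2.32 and 2.01 at 72 h on the mean of 10 probes, a change of 2.64 ± 0.105 (SE, limma). TUBAL3, an alpha-tubulin-like gene, had −1.0, −0.65 and −0.53 and then 1.06, 1.04 and 1.51. IL18RAP, the accessory chain of the interleukin-18 receptor, had −0.60, −0.53 and −0.46 and then 1.46, 1.06 and 1.37. In all of these the lowest ratio at 72 h was above 1 and the highest at 6 h below −0.4. RSAD2, an antiviral enzyme induced by interferon, was less even, with −0.63, −0.37 and −0.29 at 6 h and 0.49, 0.07 and 0.99 at 72 h. It was reversed in 9 of 17 refits with other settings or fewer arrays. THBD, thrombomodulin, had means of −0.43 and 0.55, and PIM2, a survival kinase, −0.37 ± 0.0798 (SD, n = 3) and 0.38 ± 0.0269. MLC1, a membrane protein best known from astrocytes, had −0.47 and 0.48, and GPANK1 −0.43 and 0.34. NEFH, the heavy neurofilament chain, was chosen after its values were seen, as the gene with the lowest mean at 6 h among the reversed ones. It had −0.98, −1.45 and −0.75 at 6 h and −0.09, 1.29 and 1.16 at 72 h, so replicate 1 did not turn.

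Red cell genes were also among those that were lower and then higher. TFRC, the transferrin receptor that brings iron into the cell, had ratios of −0.58, −0.48 and −0.59 at 6 h and 0.38, 0.72 and 0.76 at 72 h. RHD, the D antigen of the Rh blood group, had −0.57, −0.33 and −0.50 and then 0.64, 0.80 and 0.67. AQP1, the water channel of the red cell membrane, had −0.44, −0.43 and −0.41 and then 0.58, 0.53 and 0.64. Arrays of both times were separated in these genes, which were chosen for 1 sign on all arrays of a time. NFE2, a transcription factor that drives globin and platelet genes, had means of −0.42 ± 0.163 (SD, n = 3) and 0.46 ± 0.253. HBD, the delta chain of haemoglobin, had −0.35, −0.40 and −0.64 at 6 h but 0.09, 1.03 and 1.02 at 72 h, so 2 of 3 arrays carried its late value. Other red cell genes did not turn upwards. HBZ, an embryonic globin chain, had means of −0.05 at 6 h and −0.84 at 72 h, AHSP, the chaperone of alpha globin, −0.06 and −0.22, and ALAS2, the first enzyme of heme synthesis in red cells, 0.02 and −0.41, and none of these 3 differences passed. In a list of 11 genes, the globins with AHSP, the median was −0.08 at both times, with 2 called higher at 72 h than at 6 h and 0 lower by limma (2 and 0 at an unadjusted p under 0.05), against 9.1% and 7.67% of all genes. Between 10 h and 48 h, 0 of the 11 were called higher and 2 lower by limma (0 and 4 at an unadjusted p under 0.05), against 4.85% and 2.2%. HBD was not called reversed without replicate 2, without replicate 3 or without any 1 array of 6 h. Globin probes, and those of RHD and its near copy RHCE, can bind each other's RNA, which makes the values of the single genes uncertain.

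Around these members, 7 of 20 genes for red cell membrane and Rh proteins had a higher ratio at 72 h than at 6 h by limma at an adjusted p under 0.05 and 0 a lower one (10 and 0 at an unadjusted p under 0.05), beside 9.1% and 7.67% of all genes. Their median was −0.03 at 6 h and 0.26 at 72 h. RHCE went from −0.16 to 1.11 and RHAG, which carries the Rh complex, from −0.03 to 0.59. Among 19 erythroid transcription factors and receptors 5 were higher at 72 h than at 6 h, with the median going from −0.15 to −0.05. MYB, a progenitor factor, went from −0.14 to 0.50 and GATA1, the master erythroid factor, from −0.35 to −0.08. Without replicate 3 the counts were 3 of 20 and 2 of 19, and without replicate 1 and without the third array of 6 h the membrane list had 4 each. In the 6 arrays alone with the replicate block the counts were also 3 of 20 and 2 of 19. Some markers of other blood lineages also moved between both times. The myeloid gene LYZ went from 0.03 to 1.75 and ITGAM from 0.15 to 0.87, while MPO and CD14 stayed within 0.08 of 0 at both times. The lymphoid gene CD3D went from 0.14 to 1.62 and CD3E from 0.03 to −0.08. Across the 8 myeloid and lymphoid markers 3 passed for a difference, against 16.8% of all genes in either direction. Their mean ratios were −0.08 to 0.15 at 6 h and −0.08 to 1.75 at 72 h. Of 4 megakaryocytic markers 0 passed, with mean ratios of −0.03 to 0.14 at 6 h and −0.04 to 0.43 at 72 h. The part of all these markers in the red cell values was not tested.

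RHD and HBD are shown because both promoters hold AGATAA, an element bound by GATA1, within 80 bases of the start. The sequences are the 250 bases before the RefSeq starts on GRCh38.p14, 5′ to 3′, with AGATAA or its reverse complement in capitals. RHD lies at chr1:25272236-25272485 on the plus strand and HBD at chr11:5234484-5234733 on the minus strand:
RHD: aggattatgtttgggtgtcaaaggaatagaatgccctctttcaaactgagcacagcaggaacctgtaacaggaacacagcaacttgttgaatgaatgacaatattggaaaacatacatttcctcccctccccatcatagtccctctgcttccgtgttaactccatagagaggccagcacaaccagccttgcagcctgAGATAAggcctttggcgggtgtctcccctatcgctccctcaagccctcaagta
HBD: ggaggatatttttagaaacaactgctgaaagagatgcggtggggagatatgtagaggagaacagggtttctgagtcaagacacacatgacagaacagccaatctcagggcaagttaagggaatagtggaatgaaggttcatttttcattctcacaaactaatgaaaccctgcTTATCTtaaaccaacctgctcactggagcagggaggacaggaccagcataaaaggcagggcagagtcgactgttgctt

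Single genes of carbohydrate and lipid metabolism were also among those that were lower and then higher. SLC2A1, the glucose transporter GLUT1, had ratios of −0.41, −0.27 and −0.60 at 6 h and 1.18, 0.92 and 1.15 at 72 h. GBE1, which branches glycogen, had −0.40, −0.49 and −0.81 and then 0.47, 0.55 and 0.26. MVK, mevalonate kinase of the cholesterol route, went from −0.20 ± 0.19 (SD, n = 3) to 0.16 ± 0.092, with 1 of its 2 probes changing sign. These 3 genes thus differed in the size of the late ratio. MVK was reversed in 9 of 17 refits with other settings or fewer arrays. Of 23 cholesterol genes 12 had a higher ratio at 72 h than at 6 h by limma at an adjusted p under 0.05 and 0 a lower one (15 and 1 at an unadjusted p under 0.05), against 9.1% and 7.67% of all genes. Their median went from 0.03 to 0.27. INSIG1, which holds back the SREBP factors, went from −0.06 to 0.97, IDI1, the isomerase that follows mevalonate, from −0.13 to 0.45, and SREBF1, the gene of an SREBP factor, from −0.66 to −0.02. Without replicate 3 the count was 5.

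Replication-dependent histones, which package newly made DNA, changed sign in the opposite sense to the mitotic genes. Of 53 measured histone genes 32 went from lower to higher, against 17.9% of all genes, and 14 had a higher ratio at 72 h by limma at an adjusted p under 0.05, against 9.1%. The list median was −0.06 at 6 h and 0.27 at 72 h. Its median change of 0.35 was 0.09 without replicate 2 and also without the 72 h array of replicate 2, and 0.52 without that of replicate 1. H3C3 had ratios of −0.15, −0.41 and −0.28 at 6 h and 0.17, 0.25 and 0.29 at 72 h, and H4C6 had −0.17, −0.35 and −0.42 and then 0.07, 0.77 and 0.48. Both were called at both times, and neither without replicate 3. Histone probes can bind several near-identical copies, so the members are not independent. The count was 1 without replicate 3, 4 without replicate 2, 6 without either the second or the third array of 6 h, 8 without the second array of 72 h and 23 without its first. It was 0 in the 6 arrays alone with the replicate block, where 404 of all genes were called higher. In the arrays of 10 h and 48 h the histones went the other way, with 12 lower and 1, H3C3, higher at 48 h by limma. At an unadjusted p under 0.05 these were 14 and 4. Over all genes 2.2% were called lower and 4.85% higher at 48 h.

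**Figure D3:**
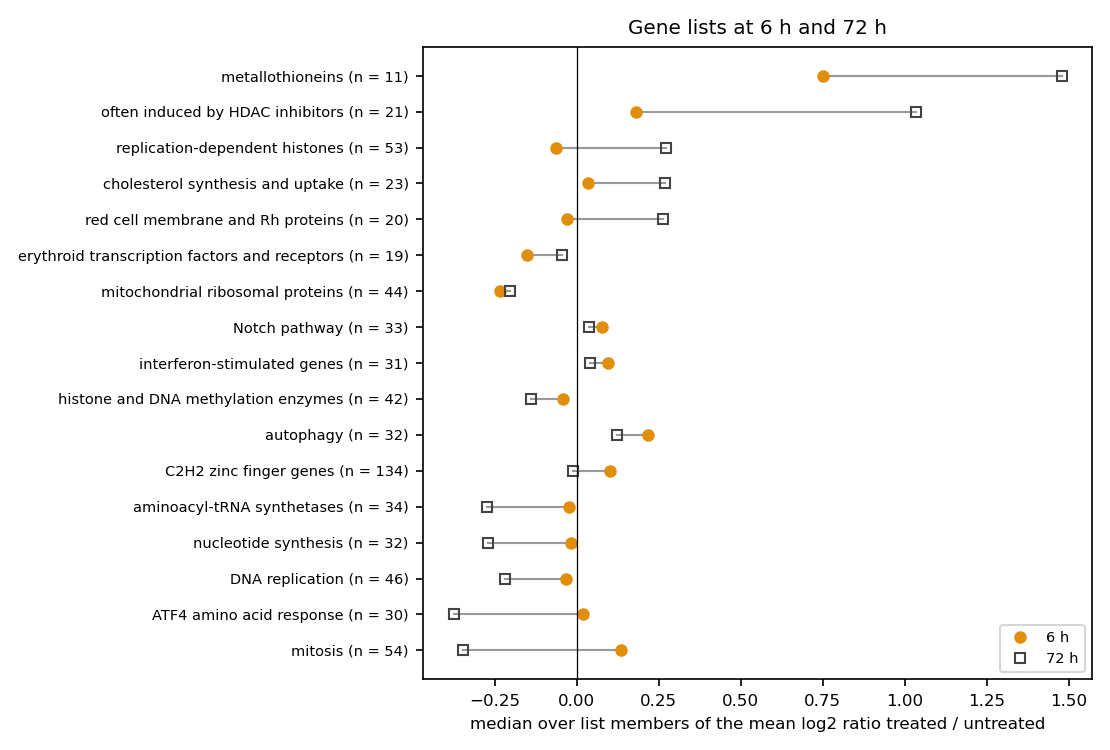
Median over the members of each list of the mean log2 ratio of treated over untreated cells (x axis) at 6 h (filled circles) and 72 h (open squares), for the 17 of 56 lists whose median change was at least 0.2 or that held 2 or more reversed genes; n is the number of measured genes. Mitosis, the amino acid response, histones and red cell membrane genes cross 0, while metallothioneins and genes often induced by deacetylase inhibitors are above 0 at both times.

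No reversed gene was in 35 of the 56 gene lists, which held 1832 measured genes in all. Of the 1832 listed genes 40 were reversed, beside 209, or 1.14%, of all 18334 genes. The other 169 were in no list. At least 1 reversed gene was in 21 lists, and the median changed sign in 11 lists. Lists with a strong response that kept its sign set the scale. Ribosome biogenesis genes had a median of −0.47 at 6 h and −0.44 at 72 h. Of 37 genes 31 were called lower at 6 h and 29 at 72 h, against 9.66% and 13.6% of all genes. Genes for intraflagellar transport had medians of 0.31 and 0.32. The C2H2 zinc finger genes showed many small sign changes, 56 of 134 from higher to lower against 16.9% of all genes, with ZNF567 and ZNF681 called at both times. Members of other lists that reversed from higher to lower were PRDX6, a peroxide-removing enzyme, ERO1A, an oxidase of protein folding, BET1 of Golgi transport, UVRAG of autophagy and DTX2 of the Notch pathway, with means of 0.19 to 0.30 at 6 h and −0.27 to −0.09 at 72 h. Those from lower to higher were SQSTM1, an autophagy receptor (−0.27 and 0.23), and the mitochondrial ribosomal genes MRPS6 (−0.24 and 0.50) and MRPS10 (−0.28 and 0.14). Many of these calls depended on the settings. In 17 refits with other settings or fewer arrays, PRDX6 was reversed in 12, ERO1A in 9, UVRAG in 8, BET1 in 7 and DTX2 in 3. MRPS6 was so in 14, ZNF567 in 11, SQSTM1 in 10, ZNF681 in 7 and MRPS10 in 6.

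The other 9 arrays, taken at 2, 10 and 48 h, allowed a test of the same change at other times. Their ratios did not enter the means of 6 h and 72 h, but they shared in the dye term and the variance of the 15-array fit that called the 209 genes, so the choice was not wholly free of them. In a fit of these 9 arrays alone, 48 h was compared with 10 h. Of the 128 genes that were higher and then lower, 50 (39.1%) had a lower ratio at 48 h than at 10 h by limma at an adjusted p under 0.05, against 2.2% of all genes. Of the 81 that were lower and then higher, 33 (40.7%) had a higher ratio, against 4.85% of all genes. In the opposite direction 0 of either group were called, and 0 also at an unadjusted p under 0.05. The estimate lay in the late direction in 120 of 128 and 78 of 81 genes, beside 48.4% and 51.6% of all genes. The difference lay in that direction within all 3 replicate numbers in 103 and 66 genes. For this the share of all genes was not counted, so it is a description. The median change was −0.26 and 0.29, and 0.00434 over all genes. The counts fell to 28 and 13 without the 10 h array of replicate 3, to 25 and 14 without the 48 h array of replicate 3 and to 32 and 16 without that of replicate 2. When the genes were instead chosen in the 6 arrays of 6 h and 72 h alone, with the replicate block, 26 were reversed from higher to lower and 29 from lower to higher, and the 9 arrays had no part in that choice. Of these, 17 of 26 (65.4%) had a lower ratio at 48 h than at 10 h and 16 of 29 (55.2%) a higher one by limma, against the same 2.2% and 4.85% of all genes. In the opposite direction 0 were called, and 0 also at an unadjusted p under 0.05. The estimate lay in the late direction in 26 of 26 and 28 of 29, with medians of −0.42 and 0.41. This choice was added after the data were seen. All arrays came from the same 3 thawings, so the test is on other RNA but not on other cell stocks.

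Genes described above were among those that passed. CCL2 had ratios of −0.30, −0.28 and −0.30 at 10 h and 1.25, 1.34 and 1.41 at 48 h, a change of 1.63 ± 0.0752 (adjusted p = 2.99e-05 by limma). PSAT1 had 0.54, 0.26 and 0.10 at 10 h and −0.47, −0.59 and −1.02 at 48 h (−1.0 ± 0.0922, adjusted p = 0.000495). RHD had −0.55, −0.08 and −0.55 and then 0.43, 0.26 and 0.39 (0.75 ± 0.119, adjusted p = 0.00635). In all of these the groups were separate and crossed 0 between 10 h and 48 h. DNMT3B, with 0.46, 0.29 and 0.53 at 10 h and −0.36, −0.19 and −0.12 at 48 h, also crossed. At 48 h the mean was still on the early side of 0 in 29 of the 128 and 24 of the 81 genes. TFRC still had −0.22, −0.35 and 0.01 at 48 h, HBD −0.44, −0.47 and −0.13 and NFE2 −0.08, −0.20 and −0.09. NAMPT moved by −0.03 ± 0.16 between 10 h and 48 h, and SETD7 by 0.01 ± 0.0754.

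**Figure D4:**
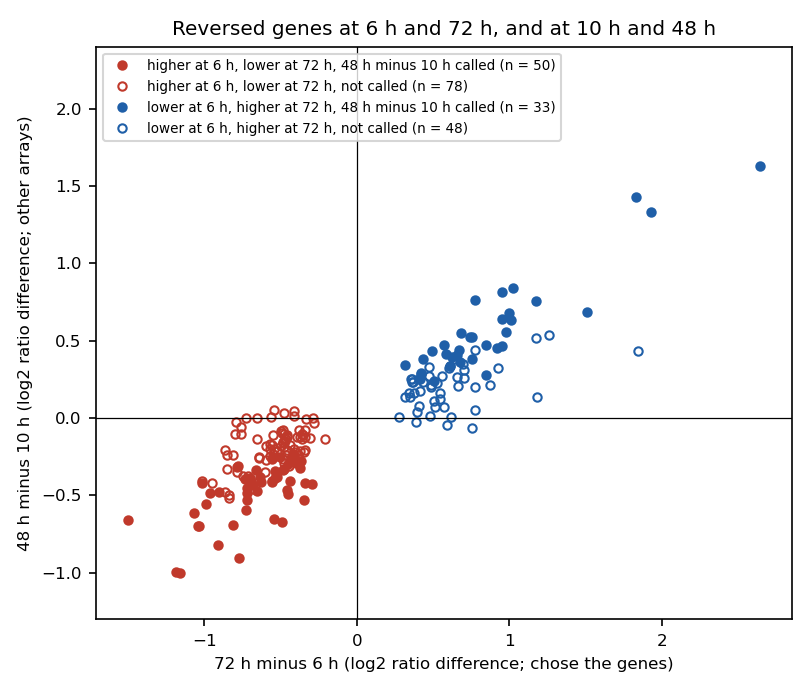
For each of the 209 reversed genes, the difference of log2 ratios between 72 h and 6 h (x axis, used in the choice) and between 48 h and 10 h in a fit of the other 9 arrays (y axis); filled points passed limma's test at an adjusted p under 0.05, 50 red and 33 blue. All but 11 points lie on the late side of 0 on the y axis.

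Over all 5 times the medians of both groups crossed 0 once, between 10 h and 48 h. The values of 6 h and 72 h chose the genes, which favours large sizes at these times, so the sizes are a description and are not compared between times. The median of the genes that were higher and then lower was 0.14 at 2 h, 0.27 at 6 h, 0.16 at 10 h, −0.09 at 48 h and −0.26 at 72 h, and that of the opposite group −0.15, −0.29, −0.18, 0.11 and 0.31. Already at 2 h 26 of 128 and 19 of 81 genes were called in their 6 h direction by limma, against 5.37% and 1.9% of all genes. Without the 2 h array of replicate 3, the one that agreed least with the others, these counts were 5 and 4, against 1.16% and 0.311% of all genes, and without that of replicate 1 they were 6 and 6 and of replicate 2 14 and 10. At 10 h 57 and 38 were called in that direction, against 19% and 12.8% of all genes, and 0 in the 72 h direction in either group (1 and 0 at an unadjusted p under 0.05). At 48 h 42 and 29 were called in their 72 h direction, against 15.4% and 23.8%, while 1 and 4 were still called in the early one. Both a called early sign at 10 h and a called late sign at 48 h were found in 13 of 128 and 8 of 81 genes. The share of all genes with both calls was not counted, so these counts are a description.

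**Figure D5:**
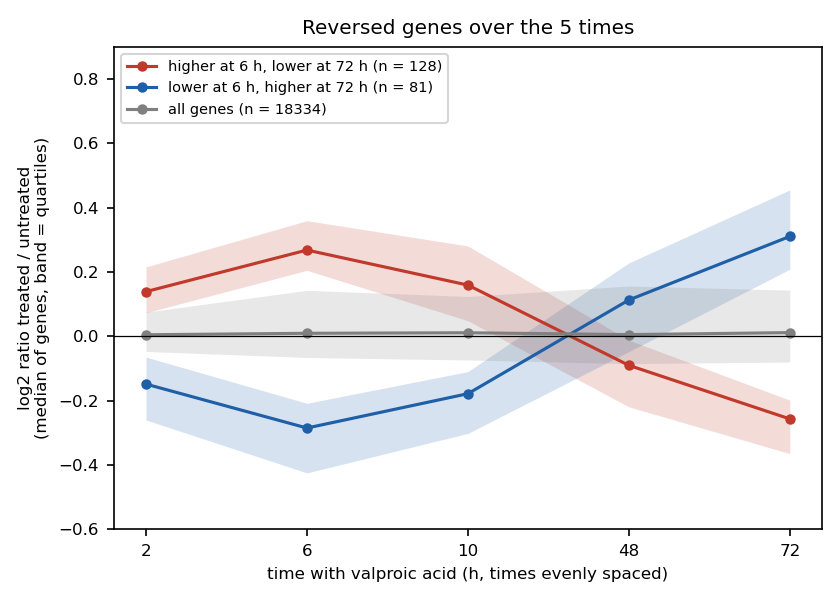
Median log2 ratio of treated over untreated cells (line) and quartiles (band) at 2, 6, 10, 48 and 72 h for 128 genes higher then lower (red), 81 lower then higher (blue) and all 18334 genes (grey); times are evenly spaced on the x axis. The points of 6 h and 72 h are the values that chose the genes, and the medians of both groups cross 0 between 10 h and 48 h.

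Promoters were compared over the RefSeq windows from 250 bases before to 50 after each start, which were matched for 178 of 209 reversed genes and 14410 measured genes. Motifs were searched on both strands as exact letters. ATTGG, the reverse complement of CCAAT, can share letters with TTGGCGC where both occur. The box CCAAT occurred in 42.2% of windows of the genes higher then lower, 47.8% of those lower then higher and 36.4% of all. GGGCGG, the GC box of SP1, occurred in 71.6%, 79.7% and 60.6%, and the E-box CACGTG in 11.9%, 13% and 9.08%. AGATAA was found in 5.5%, 10.1% and 7.15%, TATAAA in 5.5%, 15.9% and 8.72%, TTGGCGC in 6.42%, 5.8% and 4.27%, and TGACTCA, an AP-1 element, in 2.75%, 1.45% and 3.58%. The ATF4 composite element TGATGNAA, added after the gene groups were seen, occurred in 1.83%, 0% and 2.35%. It occurred in 0 of the 5 matched windows of reversed amino acid response genes. The median GC content was 64.3%, 62.3% and 63.3%. These shares are descriptions of letters in the windows and were not tested.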

How the data were processed

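The deposited table held a log ratio (treated RNA over untreated) for each of 45220 probes and 15 arrays, between −4.09 and 4.83 and with 0 values missing. The authors computed the ratios with limma, per the submitters' processing notes; version, background correction and normalization are not given in the sources used here. The base of the deposited ratios is not stated and was taken as log2.

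Platform annotation gave 31332 probes 1 symbol, 93 several and 13795 none; the latter groups were left out. Probes of a gene were averaged (18334 genes, 7759 with more than 1 probe). The limma 3.58.1 functions lmFit and eBayes (R 4.3.3) fitted 5 time means and a dye term on 15 arrays (9 residual degrees of freedom, prior 3.47); p-values were adjusted by Benjamini-Hochberg over all genes. Calls use ratios adjusted for dye, while array values and means are printed without that adjustment. The 9 arrays of 2, 10 and 48 h were fitted alone for the test at other times, although they shared in the dye term and variance of the 15-array fit. The script was tested on simulated data. The reversed genes, lists, naming rule and tests were chosen with earlier results of these data known. Named were the 15 reversed genes of each direction with the greatest smaller mean size and 1 sign on all arrays, up to 6 reversed genes of each list, and 3 genes on each side of the threshold; uncharacterised loci were left out. List members named beside them illustrate the counts and were chosen after their values were seen.

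Replicate numbers mark a thawing per the labels, so they pair the samples. Deviations from the means of 6 h and 72 h correlated across genes at 0.155, 0.0122 and 0.38 in replicates 1, 2 and 3. The alternatives were a replicate block, no dye term, the 6 arrays alone, array scaling, centring and weights, other probe summaries, stricter thresholds and leaving out replicates or single arrays.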

Additional observations from a re-analysis of the deposited data

Results flagged for a closer look

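These results were picked out because the response to treatment differed between times by a test of the difference itself. Between 6 h and 72 h the ratio was higher late in 1668 genes and lower late in 1407 by limma. In a fit of the arrays of 2, 10 and 48 h alone, 50 of the 128 genes higher then lower and 33 of the 81 lower then higher differed between 10 h and 48 h. Over all genes 2.2% were lower and 4.85% higher at 48 h in that fit.

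Among the genes with the greatest reversals, the change from 10 h to 48 h passed in 18. It was −1.0 for PSAT1, −0.91 for NAT8L, −0.70 for DNAJC12, −0.60 for PTPRB, −0.53 for CENPE, −0.48 for MOK and −0.42 for CDC25C. In the opposite direction it was 1.63 for CCL2, 1.43 for IL18RAP, 1.34 for TUBAL3, 0.82 for RSAD2, 0.75 for RHD, 0.69 for SLC2A1, 0.68 for GBE1, 0.64 for MLC1, 0.63 for AQP1, 0.56 for THBD and 0.52 for PIM2. It did not pass in HES1, ORC3, IFITM4P, KIF18A, NAMPT, INTU, ADAM9, SGSH, TFRC, HBD, NFE2 and GPANK1. Groups of 3 arrays were too small for a search for single outlying arrays.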

How the results depend on the processing

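The counts of 128 and 81 reversed genes (higher then lower, lower then higher) were 65 and 52 with no dye term, 26 and 29 in the 6 arrays alone with the replicate block, 32 and 34 at an adjusted p under 0.01, and 26 and 26 with both means at least 0.3. Leaving out replicates or single arrays gave 12 to 212 and 23 to 116. The lowest counts came without replicate 3, which removes the dye term as well; removing the 6 h arrays of replicate 2 gave 59 and 45 and of replicate 3 40 and 44, and the 72 h array of replicate 3 gave 58 and 45. Without replicate 1 there were 207 and 96. With the replicate block over all 15 arrays the pairing gave 136 and 97 reversed genes. The genes higher and lower at 72 h than at 6 h, 1668 and 1407, were 404 and 139 in the 6 arrays alone with the replicate block and 892 and 543 at an adjusted p under 0.01; 847 were lower with no dye term, and leaving out replicates or arrays gave 399 to 1726 and 149 to 1751. The block over all arrays gave 1679 and 1444. For 48 h minus 10 h the 50 and 33 calls were 22 and 21 with no dye term, 20 and 14 with scaled arrays, 60 and 39 with the replicate block, and 25 to 51 and 13 to 38 without single arrays. They were 17 and 16 among the genes chosen in the 6 arrays alone with the replicate block (26 and 29). In the 9 arrays they were lowest without the third array of 10 h (28 and 13) or 48 h (25 and 14), and 32 and 16 without the second of 48 h. The cause of these shifts was not tested. In 17 refits 7 and 14 genes were reversed every time. Of the 58 followed genes 14 were among them: PSAT1, DNAJC12, PTPRB, CENPE, FANCG, TUBAL3, CCL2, TFRC, RHD, THBD, GBE1, AQP1, NFE2 and PIM2. Of 986 refitted differences of followed genes 0 turned sign and 74 were no longer called. Array numbers and the missing intensities limit the precision.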
